A study of Mus musculus with 3 samples.

Results

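The 41 genes described here encode the machinery that copies DNA in S phase. They are the factors that license origins, the MCM helicase and the proteins that switch it on, the replicative polymerases and primase, the sliding clamp with its loader, Okazaki fragment enzymes, deoxynucleotide synthesis, replication-coupled chromatin factors and the E cyclins. They were taken by name from a fixed list, and all 41 were found among the 55536 genes of the gene table. The list was chosen with earlier results of these data known. The cells were macrophages differentiated in culture from the marrow of C57BL/6J mice, an inbred strain, and all carried the label of lipid A at 100 ng/ml for 0 minutes. Lipid A is the membrane anchor of bacterial lipopolysaccharide, and a time of 0 is the state before stimulation. There was 1 group of 3 libraries, named biological replicates 1, 2 and 3, and no genotype, treatment or time to compare with. The labels give the libraries separate biosamples under a single donor record and do not say whether separate animals were used, so the spread between libraries may be technical in part.

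DNA replication begins in G1, when the origin recognition complex, CDC6 and CDT1 load MCM2-7 rings onto DNA. At the entry to S phase, kinases together with CDC45, GINS and MCM10 turn the rings into active helicases, polymerase alpha-primase lays down primers, and polymerases delta and epsilon extend them on the PCNA clamp. Most of these genes are known targets of E2F transcription factors, which RB-family proteins hold in check outside S phase. Macrophages grown from bone marrow divide in response to the growth factor M-CSF and slow down as they mature, so their cultures can hold cycling and resting cells. In RNA from a whole culture, fewer cycling cells and less RNA per cycling cell cannot be told apart.

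The promoters below are shown because E2F-type sites are the known shared element of this gene set. Capitals mark exact matches, on either strand, to 4 E2F-type letter strings: TTTGGCGC, TTTCCCGC, TTTCGCGC and TTTGCCGC. Sequences run 5′ to 3′ on the gene's own strand up to a RefSeq gene start, from RefSeq on build GRCm38.p6 (the same coordinates as mm10), and stop earlier where an annotated exon of the gene begins. Uhrf1 (chr17:56304063-56304312, plus strand) and Mcm5 (chr8:75109259-75109508, plus strand) had the largest differences between libraries, as given further on. The Uhrf1 sequence lies before an inner start of the gene. Mcm6 (chr1:128359706-128359955, minus strand) holds 3 matches and Pola1 (chrX:93632156-93632405, minus strand) holds 1. Mcm2 (chr6:88898781-88899030, minus strand) has none of these strings in its window, and its values differed as widely as those of other MCM genes. Rfc1 (chr5:65335671-65335889, minus strand), the member whose level differed least, has none either. A missing exact string does not show that a site is absent, and a link between strings and library differences was not tested.
Uhrf1: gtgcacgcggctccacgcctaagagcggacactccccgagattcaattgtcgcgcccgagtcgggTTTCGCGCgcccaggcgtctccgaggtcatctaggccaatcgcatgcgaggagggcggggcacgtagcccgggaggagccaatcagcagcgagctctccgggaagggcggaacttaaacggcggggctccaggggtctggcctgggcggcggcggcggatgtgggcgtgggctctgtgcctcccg
Mcm5: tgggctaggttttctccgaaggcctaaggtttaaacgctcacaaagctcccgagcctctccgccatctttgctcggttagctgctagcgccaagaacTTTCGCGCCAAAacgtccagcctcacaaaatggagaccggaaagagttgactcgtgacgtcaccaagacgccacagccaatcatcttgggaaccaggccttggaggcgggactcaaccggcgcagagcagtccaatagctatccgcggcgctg
Mcm6: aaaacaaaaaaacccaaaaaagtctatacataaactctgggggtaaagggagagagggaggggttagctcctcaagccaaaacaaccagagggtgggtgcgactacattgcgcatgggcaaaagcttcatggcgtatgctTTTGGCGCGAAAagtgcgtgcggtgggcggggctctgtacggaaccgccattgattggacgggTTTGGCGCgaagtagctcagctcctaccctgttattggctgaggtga
Pola1: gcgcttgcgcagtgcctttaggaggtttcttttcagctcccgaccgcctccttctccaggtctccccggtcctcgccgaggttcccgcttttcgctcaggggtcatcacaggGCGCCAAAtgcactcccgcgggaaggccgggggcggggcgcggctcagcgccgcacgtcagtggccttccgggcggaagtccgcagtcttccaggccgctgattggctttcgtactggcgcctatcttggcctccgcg
Mcm2: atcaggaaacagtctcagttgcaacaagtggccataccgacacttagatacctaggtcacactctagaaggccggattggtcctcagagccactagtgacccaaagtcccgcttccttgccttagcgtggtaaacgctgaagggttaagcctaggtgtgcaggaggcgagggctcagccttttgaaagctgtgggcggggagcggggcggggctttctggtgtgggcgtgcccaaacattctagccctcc
Rfc1: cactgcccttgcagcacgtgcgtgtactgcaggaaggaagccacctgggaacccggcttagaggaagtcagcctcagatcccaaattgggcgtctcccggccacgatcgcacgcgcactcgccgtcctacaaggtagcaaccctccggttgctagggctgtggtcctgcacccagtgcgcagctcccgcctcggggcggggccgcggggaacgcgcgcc
In Uhrf1 the match begins 185 bases before the start. In Mcm5 a pair of overlapping matches on opposite strands begins 153 and 149 bases before it, and in Mcm6 the same arrangement lies at 110 and 106 bases, with a further match at 47 bases. The Pola1 match begins 138 bases before the start.

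RefSeq promoter windows (250 bases before to 50 after a start) were given for 34 of the 41 members. An E2F-type string was present in 14 of these 34 genes, or 41.2%, against 704 of 27025 genes in the whole table, or 2.60%. Per promoter the shares were 34.1% of 41 member promoters and 2.26% of all 32851. The 14 genes were Cdc6, Cdt1, Dnmt1, Gins3, Lig1, Mcm3, Mcm5, Mcm6, Mcm7, Orc1, Pola1, Pold1, Rfc3 and Uhrf1. TTTCGCGC was found in 8 member promoters, TTTGGCGC and TTTCCCGC in 6 each, and TTTGCCGC in 0. The string CCAAT, the core of NF-Y sites, was in 22 of 34 members, or 64.7%, and in 41.1% of all genes. A match is a letter string, not a measured binding site.

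Replication genes were transcribed in all of the cultures, and replicate 1 held several times more of their RNA than the other libraries. Levels are given in TPM, a count of transcripts per fixed total, a scale corrected for transcript length. The median member stood at 26.65 TPM in replicate 1, 5.05 TPM in replicate 2 and 8.83 TPM in replicate 3. Summed over the 41 genes the levels were 2148, 503 and 798 TPM. Over the libraries the median of the members' mean TPM was 14.97, close to the 14.88 of all 11886 genes with enough counts to be compared, and it was 7.005 TPM without replicate 1. At a threshold of 1 TPM, 37 of 41 members were detected in every library, where the share among all genes of the table was 19.0%. Most genes of the table are hardly expressed. Among the 11886 genes with enough counts, 10414 were detected in every library, so detection did not set the members apart from these. The 4 others, Orc1, Cdc6, Pole and Ccne2, were below 1 TPM in replicate 2, and Orc1 also in replicate 3.

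To compare libraries, expected counts were scaled with TMM factors to CPM (counts per fixed library total) and put on a log2 scale, log2(CPM + 0.5). A library's ratio is its value minus the mean of the other 2 libraries. A gene was called past 2-fold when the ratio was over 1. A library set against the others has no replicate of its own and so no test, and the members are read against the same measure over all 11886 genes. All 41 members were among these genes.

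In that comparison 40 of 41 members were highest in replicate 1, a position held by 34.7% of all genes compared. The median ratio of replicate 1 was 1.92 for the members and 0.00 for all genes. In 35 of 41 members replicate 1 was over 2-fold higher than the other libraries, where the share of all genes was 7.27%. Past 4-fold there were 20 members and 115 genes in all, or 0.968% of those compared. The 6 members that stayed within 2-fold were Rfc1, Pola2, Gins3, Rfc5, Rfc3 and Dnmt1. Nearest to the threshold were Prim2 (1.04) and Rpa1 (1.08) above it and Dnmt1 (0.87) and Rfc3 (0.84) below it.

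Replicate 2 was the low library. Of the 41 members 36 were lowest there, against 32.9% of all genes, and 29 were over 2-fold lower there than in the other libraries, against 5.92%. The median ratio of replicate 2 was −1.67, and −0.91 without replicate 1. Replicate 3 lay between: 35 members had the order replicate 1, then 3, then 2, an order shared by 17.4% of all genes. Set directly against replicate 2, replicate 3 was over 2-fold higher for 17 members, against 7.24% of all genes, and the median difference was 0.92 on the log2 scale. Replicate 1 exceeded replicate 3 by a median of 1.54. Cdt1, Pold1, Rfc4, Rpa2 and Fen1 instead were lowest in replicate 3. In TPM, which sets each library to the same sum, the members lowest in replicate 3 numbered 8.

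**Figure D1:**
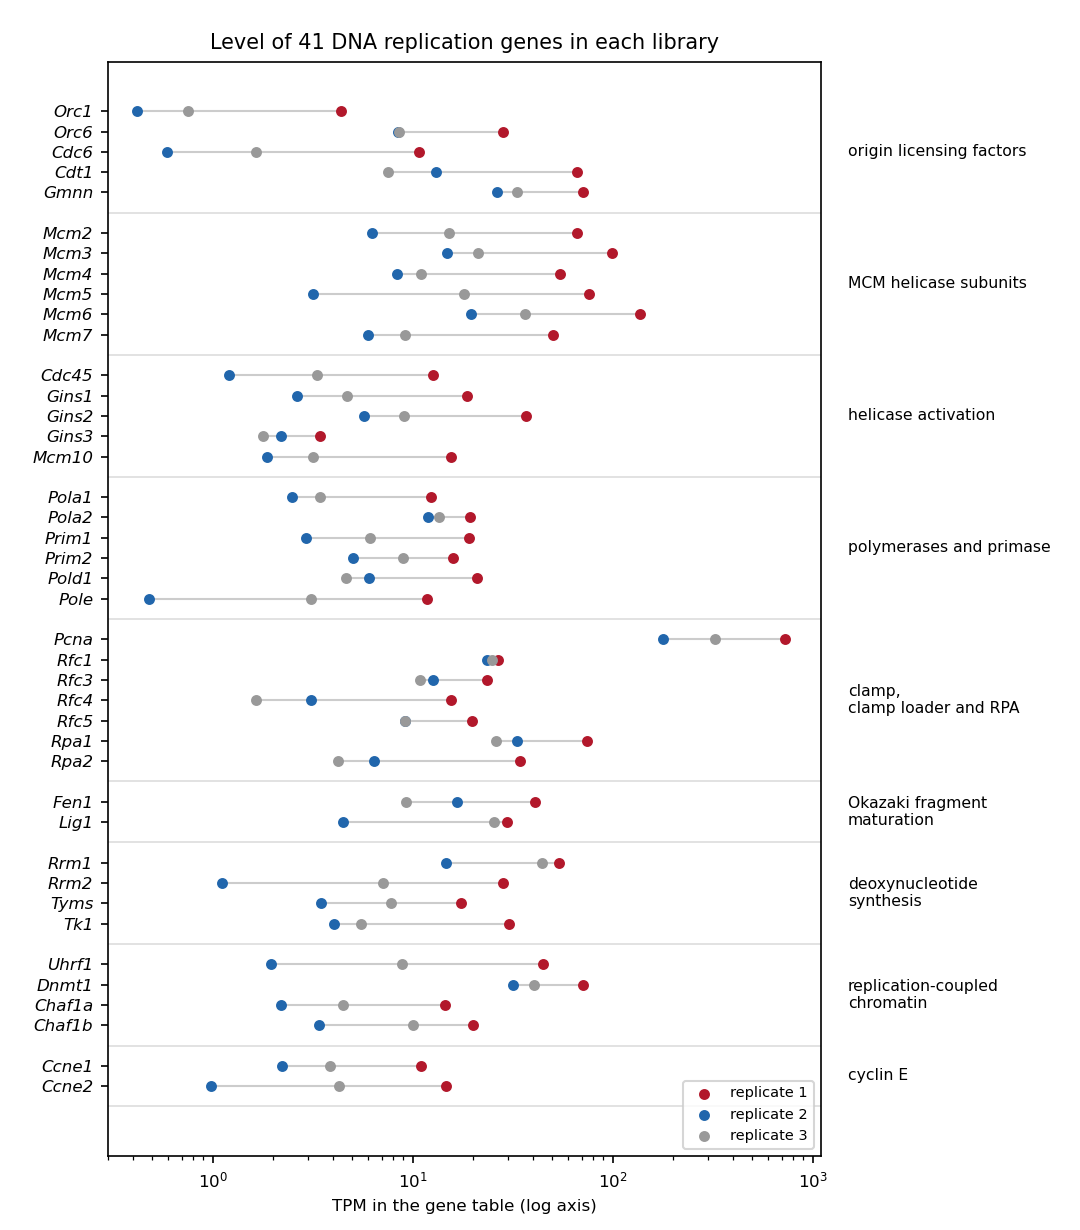
Level in TPM (log axis) of each of the 41 replication genes in replicates 1, 2 and 3, grouped by role, with a grey line from the lowest to the highest library. Replicate 1 (red) is the highest point for every gene on this scale, and the 3 points of Rfc1 nearly coincide.

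Among the origin licensing factors all 5 were over 2-fold higher in replicate 1, with a median ratio of 2.44. Cdc6, the ATPase that helps to load MCM rings, stood at 10.8, 0.59 and 1.64 TPM in replicates 1, 2 and 3. Orc1, the ORC subunit whose level follows the cell cycle, was at 4.4, 0.42 and 0.75 TPM, from only 193, 17 and 58 counts. Those 2 genes were the least abundant of the group in the low library. Cdt1, which brings MCM rings to the origin, was at 66.1, 13.0 and 7.58 TPM, with replicate 3 lowest. Orc6 was at 28.3, 8.46 and 8.51 TPM and so did not separate replicates 2 and 3 in TPM. Geminin (Gmnn), the inhibitor of CDT1, was at 71.2, 26.4 and 33.5 TPM. It had the smallest ratio of the group, 1.15, while its target Cdt1 had 2.53.

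All 6 subunits of the MCM2-7 helicase were over 2-fold higher in replicate 1, with a median ratio of 2.49. Mcm2 stood at 66.3, 6.28 and 15.2 TPM, Mcm3 at 99.2, 14.8 and 21.2 TPM and Mcm4 at 54.4, 8.40 and 11.0 TPM in replicates 1, 2 and 3. Mcm6, the most abundant subunit in replicate 1, was at 137, 19.5 and 36.4 TPM, and Mcm7 at 50.2, 5.99 and 9.12 TPM. In each of these subunits the order of the libraries was the same and their ratios spanned 2.31 (Mcm4) to 3.11 (Mcm5). Mcm5 was at 75.8, 3.18 and 18.02 TPM, a difference of 21.9-fold between replicates 1 and 2 on TMM-scaled counts against 6.35- to 10.5-fold for the other subunits. The rings contain the subunits in equal number. Their transcripts spanned 2.74-fold from lowest to highest in replicate 1, 6.14-fold in replicate 2 and 4.0-fold in replicate 3. Mcm5 was 15.7%, 5.47% and 16.2% of the summed MCM2-7 TPM, so its share was low in replicate 2.

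Of the 5 genes of helicase activation 4 were over 2-fold higher in replicate 1. Cdc45, which joins MCM and GINS in the active helicase, stood at 12.7, 1.21 and 3.32 TPM. Mcm10, needed for the rings to start unwinding, was at 15.5, 1.87 and 3.19 TPM. Their library order was that of the MCM subunits. Gins1 was at 18.7, 2.64 and 4.70 TPM and Gins2 at 37.1, 5.75 and 9.04 TPM. Gins3 was at 3.45, 2.20 and 1.78 TPM, with a ratio of 0.58 that stayed within 2-fold. The remaining GINS subunit, Gins4, which is outside the 41 genes, was at 30.7, 18.4 and 26.4 TPM with a ratio of 0.32. Of the 4 GINS subunits, Gins1 and Gins2 therefore passed 2-fold, and Gins3 and Gins4 did not.

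Polymerase and primase genes passed 2-fold in 5 of 6 cases. Pole, the catalytic subunit of polymerase epsilon, stood at 11.9, 0.48 and 3.12 TPM, from 801, 33 and 430 counts, and had the largest ratio of the group, 2.90. Pold1, the catalytic subunit of polymerase delta, was at 20.98, 6.09 and 4.64 TPM. The catalytic subunits of the leading- and lagging-strand enzymes therefore had opposite orders in replicates 2 and 3. Pola1, the catalytic subunit of polymerase alpha, was at 12.3, 2.50 and 3.45 TPM, and the primase subunit Prim1 at 19.1, 2.92 and 6.11 TPM. Their partners Pola2 (19.5, 12.0 and 13.5 TPM) and Prim2 (15.9, 5.05 and 8.96 TPM) differed less. In replicate 1 the transcripts of the 4 subunits of polymerase alpha-primase lay within 1.58-fold of each other, and in replicates 2 and 3 they spanned 4.78-fold and 3.91-fold. Pola2 took 29.1%, 53.3% and 42.2% of their sum.

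The clamp, clamp loader and RPA genes had 4 of 7 members past 2-fold, a median ratio of 1.08 and ratios from 0.00 to 2.48. Pcna, the sliding clamp that tethers polymerases, was the most abundant member in every library at 725, 178 and 325 TPM, from 16734, 4378 and 15252 counts. Its ratio was 1.47. The processed pseudogene Pcna-ps2 was listed at 11.8, 2.55 and 4.88 TPM in the same table and at 0.746, 0.157 and 0.187 TPM in the kallisto-format table. The division of reads between the copies is an estimate.

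Rfc1, the large subunit of the clamp loader, was nearly constant at 26.7, 23.7 and 25.0 TPM. Its ratio in replicate 1 was 0.00, and 13.6% of all genes compared had a smaller SD between libraries. Rfc4, a small subunit of the same complex, was at 15.5, 3.11 and 1.65 TPM, with a ratio of 2.30. Rfc3 (23.6, 12.7 and 10.8 TPM) and Rfc5 (19.8, 9.14 and 9.18 TPM) lay between them and stayed within 2-fold. Rfc4 accordingly made up 11.1%, 2.51% and 1.80% of the clamp loader's summed TPM, and Rfc1 19.0%, 19.1% and 27.3%. Of the single-strand binding complex RPA, Rpa1 was at 74.4, 33.4 and 26.2 TPM and Rpa2 at 34.4, 6.41 and 4.24 TPM. Rpa2 was 27.1% of the RPA sum in replicate 1 and 12.7% and 11.9% in the others.

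Fen1, the flap nuclease of Okazaki fragment maturation, stood at 40.8, 16.7 and 9.27 TPM. Lig1, the ligase that seals the fragments, was at 29.8, 4.48 and 25.5 TPM. Replicate 3 was thus the low library for Fen1 and came near replicate 1 for Lig1 in TPM. On TMM-scaled counts Lig1 was 1.90-fold higher in replicate 1 than in replicate 3, and its transcripts differed between these libraries, as described further on.

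All 4 genes of deoxynucleotide synthesis were over 2-fold higher in replicate 1. Rrm2, the S-phase subunit of ribonucleotide reductase, stood at 28.2, 1.12 and 7.13 TPM, a ratio of 2.98. Rrm1, the large subunit, was at 53.8, 14.7 and 44.4 TPM, a ratio of 1.35. Rrm2 made up 31.5%, 5.07% and 12.1% of the summed TPM of the enzyme's subunits. Rrm2b, the form of the small subunit that resting cells use and a gene picked after its values were seen, made up 8.45%, 28.6% and 12.3%. The order of these small subunits was therefore reversed between replicates 1 and 2, where Rrm2 rested on 41 counts in replicate 2. Rrm2b itself was at 7.57, 6.32 and 7.22 TPM, so its larger share in replicate 2 came with lower Rrm1 and Rrm2, not with more Rrm2b. Thymidylate synthase (Tyms) was at 17.6, 3.50 and 7.78 TPM and thymidine kinase (Tk1) at 30.5, 4.04 and 5.53 TPM, with the library order of most members.

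Of the chromatin factors that travel with the fork, Uhrf1 differed most of all 41 members. UHRF1 recognises hemimethylated DNA and brings in the maintenance methyltransferase DNMT1. Uhrf1 stood at 44.9, 1.95 and 8.83 TPM, a 10.8-fold difference between replicate 1 and the other libraries and 23.6-fold against replicate 2 alone. Dnmt1 was at 71.3, 31.8 and 40.5 TPM, only 1.83-fold. These partners therefore had very different ranges in the same libraries. Of the histone chaperone CAF-1, Chaf1a was at 14.5, 2.20 and 4.48 TPM and Chaf1b at 20.2, 3.40 and 10.01 TPM. Chaf1b was 1.39, 1.55 and 2.23 times as abundant as Chaf1a in these libraries. In the kallisto-format table Chaf1a was at 16.4, 2.27 and 6.18 TPM and Chaf1b at 14.7, 2.53 and 9.46 TPM. The order of the pair in replicate 1 thus depended on the program.

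The E cyclins, which activate CDK2 at the start of S phase, both passed 2-fold. Ccne1 was at 11.1, 2.22 and 3.86 TPM, and Ccne2 at 14.6, 0.98 and 4.29 TPM. Ccne2 was the more abundant of the pair in replicates 1 and 3 (56.9% and 52.6% of their sum) and the less abundant in replicate 2 (30.6%).

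**Figure D2:**
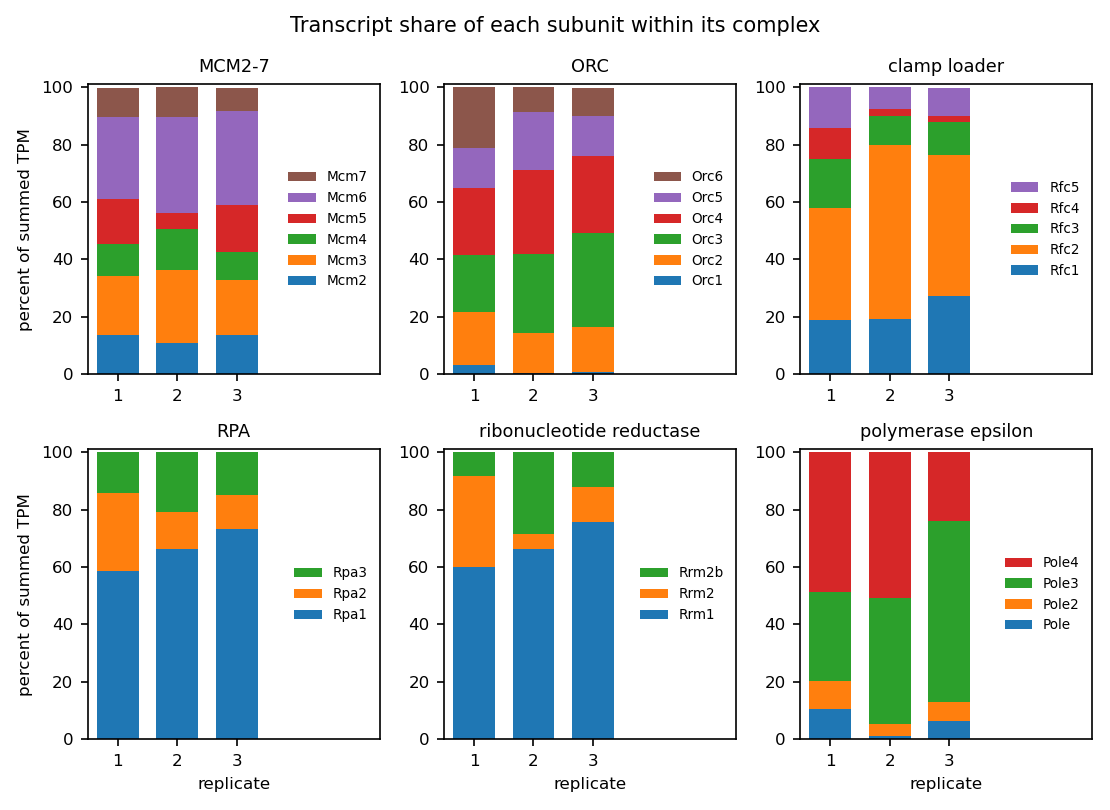
Percent of the summed TPM of 6 complexes taken by each subunit in replicates 1, 2 and 3, including subunits outside the 41 genes. Bars start at 0, and the narrow bands of Orc1, Rfc4, Rrm2 and Pole in replicate 2 show subunits with a smaller share there than in replicate 1.

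The spread between libraries was wide for the members as a group. The median SD of the log2 values over the 3 libraries was 1.28 for the 41 members and 0.38 for all genes compared, and 38 members lay above the latter value. Within a library the rank of the members was largely kept: Spearman's rho over the 41 genes' TPM was 0.768 for replicates 1 and 2, 0.832 for replicates 1 and 3, and 0.822 for replicates 2 and 3, across genes that share libraries and lengths. By ratio in replicate 1, 20 members were in the top 1% of all genes compared.

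Set side by side, the roles had median ratios of 2.49 for MCM subunits, 2.44 for licensing factors, 2.28 for the E cyclins, 2.04 for helicase activation, 1.98 for deoxynucleotide synthesis, 1.79 for polymerases and primase, 1.74 for chromatin factors, 1.71 for Okazaki fragment maturation and 1.08 for the clamp, its loader and RPA. These differences between roles were not tested. ORC gave a contrast within a complex: Orc1 was 3.31%, 0.433% and 0.870% of the summed TPM of the 6 subunits in replicates 1, 2 and 3, and Orc6 21.3%, 8.72% and 9.87%. Members with an E2F-type string in a promoter window had a median ratio of 2.33 (14 genes, 11 past 2-fold) and those without one 1.71 (20 genes, 17 past 2-fold). The ranges, 0.58 to 3.43 and 0.00 to 2.98, overlapped nearly throughout. Among other genes compared, 54 of 429 with a string (12.6%) and 566 of 8553 without (6.62%) were past 2-fold.

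Other genes of DNA replication were also mostly highest in replicate 1 and lowest in replicate 2. Of 56 such genes, which were listed beside the members and not drawn from them, 42 were highest in replicate 1, 41 were lowest in replicate 2, and 28 were over 2-fold higher in replicate 1. Their median ratio was 1.01. The helicase gene Recql4 was the least abundant, at 1.80, 0.30 and 0.43 TPM. Samhd1, which degrades deoxynucleotides and is high in resting myeloid cells, was the most abundant and the only gene of the list over 2-fold lower in replicate 1. It stood at 168, 517 and 326 TPM, the reverse of the order of Rrm1 and Rrm2.

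Regulators of the G1 to S transition, among them the E2F and RB families, were mostly highest in replicate 1 as well. Of 26 compared, 21 were highest in replicate 1, 8 were over 2-fold higher there, and the median ratio was 0.69. Dtl, which directs the destruction of CDT1 on PCNA, had the largest ratio at 3.22 and stood at 11.9, 0.69 and 1.35 TPM. Cdkn1b, which encodes the CDK inhibitor p27, was the only one over 2-fold lower in replicate 1, at 10.1, 41.5 and 23.2 TPM. These 2 genes marked opposite ends of the list. The CDK inhibitor p21 gene Cdkn1a was the most abundant, at 238, 242 and 120 TPM, nearly equal in replicates 1 and 2 and lowest in replicate 3. Cdkn2a, the lowest, was at 1.17, 0.34 and 0.16 TPM and was not compared.

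**Figure D3:**
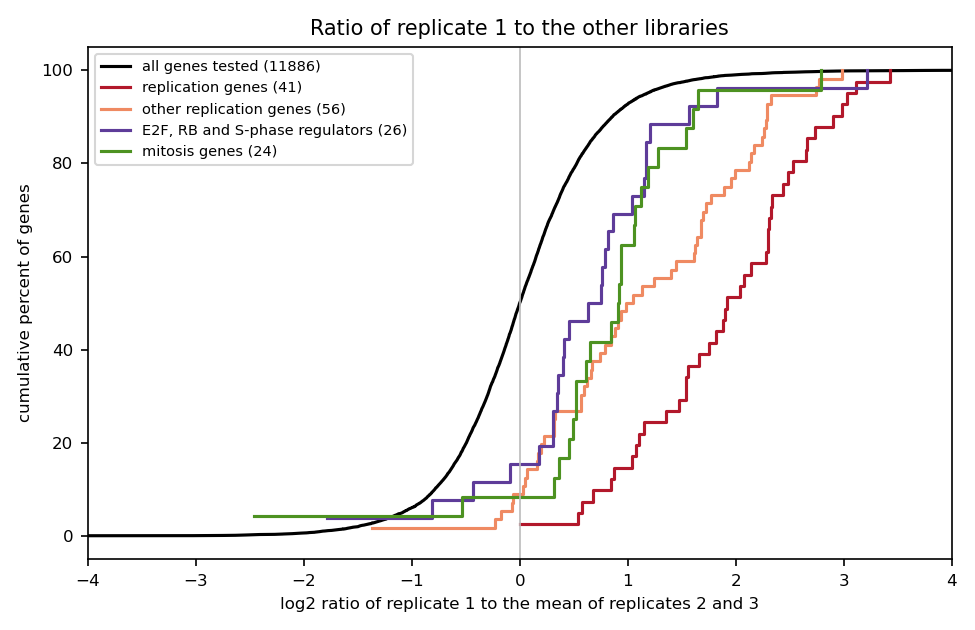
Cumulative percent of genes (vertical axis) against the log2 ratio of replicate 1 to the mean of replicates 2 and 3 (horizontal axis) for all 11886 genes compared, the 41 members and 3 other lists. The members' curve lies farthest right, with its median at 1.92, and the curve of all genes crosses its median at 0.00.

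Genes of mitosis, which act after replication in the cycle, were split between library orders. Of 24, 21 were lowest in replicate 2, as for most members, while 12 were highest in replicate 1 and 11 in replicate 3. Over all genes compared, 34.7% were highest in replicate 1 and 33.0% in replicate 3. The members' order (replicate 1, then 3, then 2) was held by 11 of the 24. Their median difference between replicates 1 and 3 was −0.04 on the log2 scale, against 1.54 for the members. Between replicates 3 and 2 it was 2.04, with 20 of 24 past 2-fold. Cdk1, the mitotic kinase and the most abundant of the list, was at 86.7, 20.1 and 37.9 TPM, the order of the members. Cenpf, a kinetochore protein and the least abundant, was at 2.37, 0.06 and 1.75 TPM. Mybl2, a cell-cycle transcription factor, had the largest ratio, 2.79, at 6.34, 0.22 and 1.28 TPM. The centromeric histone gene Cenpa had the smallest ratio, −2.46, and was the only gene of the list highest in replicate 2, at 11.0, 102 and 28.2 TPM. Whether the 2 lists differ from each other in the ratio of replicates 1 and 3 was not tested.

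**Figure D4:**
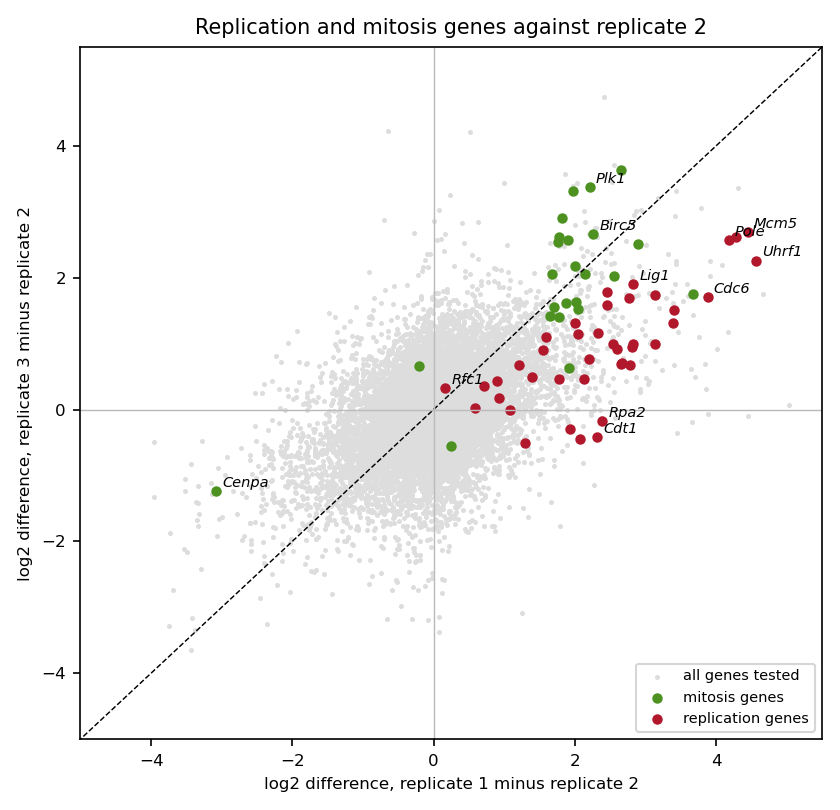
Log2 difference of replicate 1 from replicate 2 (horizontal axis) and of replicate 3 from replicate 2 (vertical axis) for all genes compared (grey), the 41 replication genes (red) and 24 mitosis genes (green). Both axes share replicate 2, so the cloud is tilted by construction, and on the dashed line replicates 1 and 3 are equal. The red points lie below the line apart from Rfc1, and 11 green points have their highest value in replicate 3.

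Other features of the libraries also differed. The libraries held 27946070, 29779410 and 53447437 expected counts, and a single ribosomal RNA gene took 9.75%, 1.88% and 2.50% of them, while mitochondrial transcripts took 1.84%, 2.24% and 6.98%. All 12 macrophage markers reached 1 TPM throughout, and they summed to 24140, 39310 and 21010 TPM. The largest part of these sums was Lyz2, at 15620, 29520 and 11090 TPM. Of these 12 genes, 2 were highest in replicate 1, 7 in replicate 2 and 3 in replicate 3. Neutrophil and granulocyte precursor markers reached that level for 4 of 12 genes and summed to 173, 37.9 and 340 TPM, lowest in replicate 2 like the members but highest in replicate 3. Progenitor markers summed to 5.43, 4.0 and 4.01 TPM with 1 of 8 at that level. The 3 with enough counts to be compared had no common order. Sox4 (1.61, 0.38 and 0.45 TPM) was highest in replicate 1, Kit (0.38, 1.53 and 0.54 TPM) in replicate 2 and Meis1 (1.52, 1.73 and 1.99 TPM) in replicate 3. Megakaryocyte markers summed to 2450, 319 and 575 TPM, nearly all of it Pf4 at 2441, 317 and 564 TPM, with 2 of 7 at 1 TPM or more. Monocyte markers (6 of 8) summed to 88.1, 260 and 118 TPM, the largest part of it Ms4a4c at 35.5, 154 and 48.8 TPM. Gene by gene, 2 of these 8 were highest in replicate 1, 3 in replicate 2 and 3 in replicate 3. Erythroid (2 of 9), B cell (2 of 8) and T and NK cell (1 of 9) markers summed to 388, 281 and 344 TPM, 3.29, 31.2 and 19.2 TPM, and 39.8, 71.3 and 148 TPM. Stromal markers were at 0 of 8 and summed to 1.33, 0.21 and 0.66 TPM. Among others, Ly6g, Hba-a1, Car1 and Lepr were listed at 0 in every library. The part of these features in the members' differences was not tested.

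The transcript tables showed which messenger forms lay behind the gene values. Each library had an RSEM-format transcript table (RSEM divides ambiguous reads by likelihood) and a kallisto-format table (kallisto matches reads by their short words rather than by alignment). The same transcript led in all 6 tables for 31 of 41 members. For 40 members the lead by mean TPM in the RSEM-format tables was protein coding. The exception was Tyms, led by Tyms-205, a transcript annotated for nonsense-mediated decay, at 7.16, 1.67 and 5.41 TPM. Only 4 members had a lead above 90% of the gene in all 6 tables.

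Replicate 3 carried more of the short forms of a few members. Lig1-201, a coding form of 3091 bases, was at 24.4, 3.16 and 5.20 TPM in the RSEM-format tables, while Lig1-212, of 1053 bases, was at 0.49, 0 and 17.9 TPM. In the kallisto-format tables Lig1-212 was at 4.87, 0 and 19.2 TPM, so the excess in replicate 3 was present in both. Lig1-201 alone was highest in replicate 1 by a wide margin, whereas the gene total of replicate 3 came near it. For Rrm1 the coding Rrm1-201 was at 44.5, 10.9 and 19.1 TPM and the 747-base Rrm1-202, annotated for nonsense-mediated decay, at 8.65, 3.42 and 25.2 TPM. Gmnn-203 was likewise at 3.58, 1.93 and 14.2 TPM, against 65.1, 24.5 and 19.0 TPM for Gmnn-202.

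Short forms were also found in replicate 1. The 375-base Rfc5-205, picked after its values were seen, was at 5.93, 0 and 0 TPM. Gins2-204, a retained-intron transcript of 511 bases, was at 16.8, 0 and 0 TPM in the RSEM-format tables and at 17.9, 2.03 and 0.261 TPM in the kallisto-format tables. The coding Gins2-201 was at 15.2, 5.05 and 8.51 TPM in the RSEM-format tables. In both programs Gins2-204 was highest in replicate 1. The gene's ratio was 1.10 on counts and 2.21 on log2 TPM. Uhrf1-201 was at 31.2, 0.44 and 4.18 TPM, and Uhrf1-204 led in replicate 2 at 0.94 TPM. For Tk1 the coding Tk1-201 was 90.6% of the gene in replicate 1 and 28.6% in replicate 2, where the retained-intron form Tk1-202 led at 1.27 TPM. In replicate 2 these shares rest on 107 counts for Uhrf1 and 99 for Tk1.

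**Figure D5:**
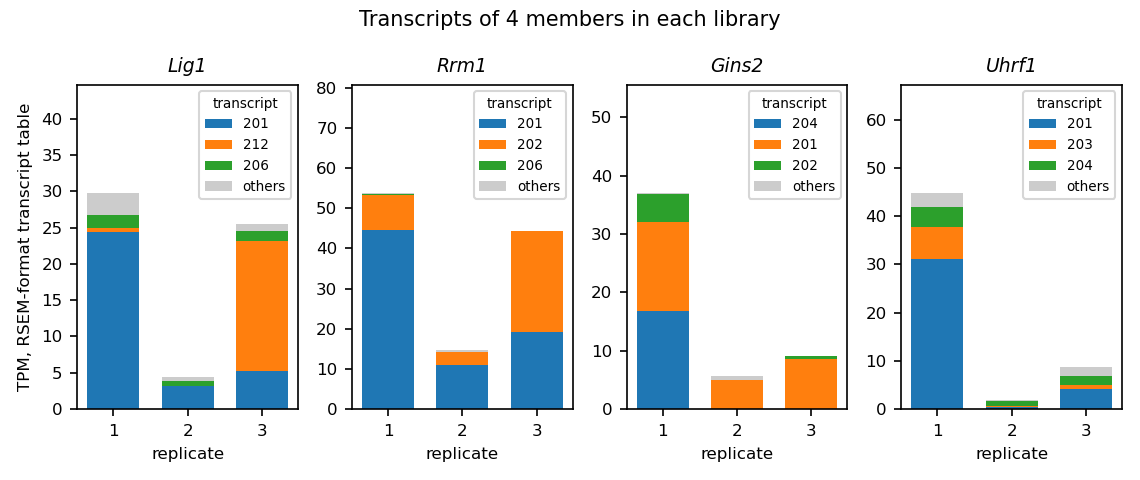
TPM of the 3 leading transcripts of Lig1, Rrm1, Gins2 and Uhrf1, and of the rest together, in replicates 1, 2 and 3 (RSEM-format transcript table; bars start at 0 and are stacked). Lig1-212 reached 17.9 TPM and Rrm1-202 25.2 TPM in replicate 3, and Gins2-204 16.8 TPM in replicate 1.

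The order of the libraries did not rest on a single program. After the median shift between the tables was removed (−0.38, −0.37 and −0.05 on the log2 scale), gene values of both programs lay within 0.5 of each other in every library for 38 of 41 members. Those outside were Orc1, Tk1 and Chaf1a. The gene tables also give a credibility interval for each TPM, whose level the headers do not state. The interval of replicate 1 lay above those of both other libraries for 38 of 41 members, and not for Orc1, Rfc1 and Lig1. The same count was not made over all genes, so it does not set the members apart. An interval need not hold the TPM quoted here, which lay inside it in every library for 29 of 41 members. Pcna in replicate 1, at 725 TPM, had an interval from 666 to 687 TPM. For Orc1 the interval reached from 3.89 to 23.4 TPM in replicate 1 and from 0.486 to 18.5 TPM in replicate 2. Counts behind the members ranged from 17 to 16734 per library. The intervals cover the assignment of reads, not the spread between cultures.

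The genes lie on 16 chromosomes, and 13 of them share exon sequence with a gene on the opposite strand. In 12 the partner's level was over 10% of the member's. Whether counting used strand is not given in the sources used here, so the split between such partners is uncertain. Partners more abundant than the member were Eif4a2 for Rfc4, Vps35 for Orc6, Wsb2 for Rfc5, Ubxn6 for Chaf1a, Tmem258 for Fen1, Ufd1 for Cdc45, Cops6 for Mcm7 and Ints8 for Ccne2. As examples, Eif4a2 stood at 167, 204 and 139 TPM where Rfc4 was at 15.5, 3.11 and 1.65 TPM, and Ints8 at 14.2, 12.8 and 14.0 TPM where Ccne2 was at 14.6, 0.98 and 4.29 TPM. Ints8 had the library order of Ccne2 in TPM, with a much smaller range.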

How the data were processed

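PolyA RNA-seq of 3 libraries of 1 group was analysed. Nothing on the aligner, program versions or use of strand is given in the sources used here. Per the labels and the deposited file lists, the build was mm10 with GENCODE annotation M21. Expected counts in the gene tables deposited by the authors are estimates that need not be whole, since reads that fit several transcripts are divided. TPM and FPKM, per the file headers, are values the authors corrected for length and library size. Estimated counts in the deposited kallisto-format tables were summed per gene.

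With edgeR 4.0.16 (R 4.3.3), expected counts were rounded, filtered by filterByExpr with an intercept, scaled by TMM and given as log2(CPM + 0.5), which left 11886 genes. Entries that name no gene (26345) held 0.131%, 0.122% and 0.0843% of counts and were left out. Tables were joined and promoters searched in Python 3.11.15 with pandas 2.3.3 and numpy 2.4.6. The ratio was tested on simulated data. Depth ranged from 27946070 to 53447437 counts per library. A value of 0 is compatible with 3 counts (0.107, 0.101 and 0.0561 CPM in replicates 1, 2 and 3), which is a limit for counting error alone as no molecular identifiers are recorded.

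With 1 group there was no contrast, so no p-value is given. All 41 members are named. Of other lists the most and least abundant genes, those of largest and smallest ratio and those needed to describe a count are named, except for a gene that is not reported here. Members and lists were chosen with earlier results of these data known. Alternatives were DESeq2 size factors as computed in edgeR, log2 TPM with pseudocount 1, kallisto-format values, posterior means, FPKM, no filter, a prior of 2 CPM, a threshold of 5 TPM and leaving out each library. Promoters of 34 of 41 members were matched by symbol to RefSeq, build GRCm38.p6.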

Additional observations from a re-analysis of the deposited data

How the results depend on the processing

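The median ratio of replicate 1 was 1.92 and ran from 1.54 to 2.40 when a replicate was left out and from 1.69 to 1.97 under the other settings, which were DESeq2 size factors, log2 TPM, kallisto-format counts, posterior means, no filter and a prior of 2 CPM. Replicate 3 depended on its partner: its median ratio was −0.24, −1.54 without replicate 2 and 0.91 without replicate 1. The members highest in replicate 3 numbered 1, 0 on log2 TPM, and 1 to 35 when a replicate was left out, with 35 without replicate 1. Those highest in replicate 2 numbered 0, and 0 to 6 when a replicate was left out, with 6 without replicate 1. With replicate 1 absent only 2 libraries are ranked, so these counts change by construction. Detected members numbered 37 and, at a threshold of 5 TPM, 19. On log2 TPM the median of all genes compared was 0.10, 0.12 and −0.23 in the libraries. Rfc1 had a ratio of 0.13 on log2 TPM and 0.07 on kallisto-format counts, against 0.00, and Gins2 had 2.21 on log2 TPM against 1.10. The mean TPM of Rfc1 was 20.8 in the kallisto-format table. The other members, 39 on log2 TPM and 40 on kallisto-format counts, kept the direction of their ratio. No paired analysis was possible because there was 1 group. Low counts limit Orc1, Cdc6, Pole and Ccne2 in replicate 2. They also limit other members there, among them Cdc45 (35 counts), Gins1 (40), Rrm2 (41), Tyms (46) and Rfc4 (59).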
